A study of Rattus norvegicus with 40 samples.

Results

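This comparison set T cells isolated from the kidney against T cells isolated from the blood of 10-week-old SS/MCW rats kept on low-salt chow (LS). It was chosen by group label and holds 8 of the 40 libraries of the series, 4 from kidney and 4 from circulating T cells. SS is the Dahl salt-sensitive rat, an inbred strain that becomes hypertensive on a high-salt diet, and SS/MCW and SS/CRL are the 2 rat types that the labels give. Each library was made from total RNA of a pool of 3 rats, and both tissues share rat type, chow and age. The labels give no sex, no markers used to isolate the cells and no statement that a kidney pool and a circulating pool came from the same animals. The authors deposited 1 expression value per gene model and group in FPKM (fragments per kilobase of transcript and per unit of sequenced fragments). The spread between the 4 libraries is therefore not given, the depth of each library is unknown, and every FPKM below is the authors' value for the group. A gene was said to have risen or fallen where the authors' deposited table gave a q below 0.05, and the error given with a log2 fold change is the standard error (SE) implied by the authors' test statistic.

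T cells recognise antigen through a receptor whose CD3 and zeta chains carry the signal inwards, with CD4 or CD8 as coreceptor. Naive and recirculating cells use CCR7 and the sphingosine receptor S1PR1 to pass between blood and lymph nodes, and cells that settle in a tissue lower these receptors. In Dahl rats and other rodent models, T cells and macrophages that enter the kidney are known to take part in salt-sensitive hypertension and renal damage. The kidney itself is mostly tubule, an epithelium dense in mitochondria whose segments each carry their own transporters.

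Of 31677 gene models, 21682 were tested. Kidney libraries were higher in 5769 of them (26.6%) and lower in 3676 (17.0%), and the median log2 fold change of kidney over circulating cells was 0.24 over gene models that reached 1 FPKM in either tissue and were above 0 in both. Among the called gene models, 2176 of the rises were listed at 0 in circulating cells and 690 of the falls were listed at 0 in kidney cells. With a normal p of the authors' statistic in place of their sampled p, 1541 gene models were higher and 909 lower, a setting that cannot test a gene listed at 0 in either tissue. The same libraries carried kidney values 1.10 to 1.14 times as high and circulating values 0.894 to 0.92 times as high in the tables that compare groups within a tissue, a median shift of the log2 fold change of 0.34. Lower levels in bulk RNA do not tell fewer cells of a type apart from less RNA per cell.

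**Figure D1:**
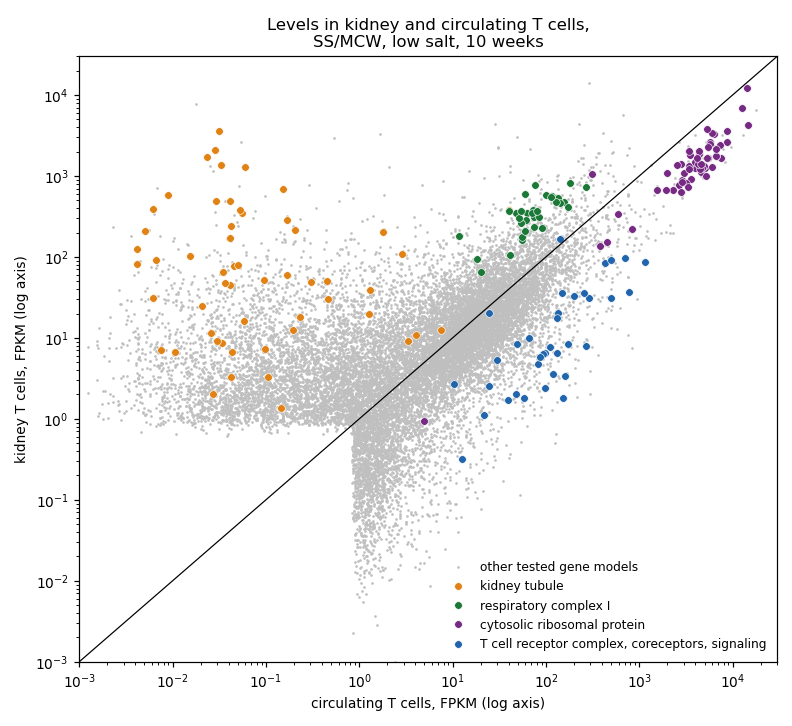
Kidney FPKM (vertical, log axis) against circulating FPKM (horizontal, log axis) of each tested gene model with a value above 0 in both tissues, with 4 groups of listed genes in colour and the line of equal levels in black. Tubule genes lie mostly at the upper left, and respiratory complex I genes (green) lie above the line. Genes of the T cell receptor list, coreceptors and signalling lie below it, except Ptpn6. Cytosolic ribosomal protein genes (purple) lie mostly at high levels and below the line, with Rplp2 above it.

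The list named T cell receptor complex here holds the CD3 and zeta chain genes and 4 further T cell surface receptor genes, Cd2, Cd5, Cd6 and Cd28. It holds no receptor alpha or beta chain gene. All genes of this list were detected in both tissues, and all were lower in kidney libraries. The 8 of 8 members that fell stand beside a background of 17.0% of gene models called lower, and their median log2 fold change was -4.06, beside 0.24 over all tested gene models. Cd3e, a signalling chain of the receptor, was at 36.7 FPKM in kidney and 772.5 FPKM in circulating libraries, with a log2 fold change of -4.39 ± 0.67 (SE). Cd3g was at 86.5 FPKM in kidney and 1144 FPKM in circulating libraries, and Cd3d at 98.0 FPKM in kidney and 711 FPKM in circulating libraries. The zeta chain gene Cd247 was at 7.99 FPKM in kidney and 270.6 FPKM in circulating libraries, a log2 fold change of -5.08 ± 0.72. Kidney libraries held 13.8% of the circulating level of Cd3d, 7.56% of Cd3g, 4.75% of Cd3e and 2.95% of Cd247, and no test of one chain against another was made. Cd2, an adhesion receptor of T and natural killer cells, was at 31.2 FPKM in kidney and 287 FPKM in circulating libraries, and Cd6 was at 20.1 FPKM in kidney and 134 FPKM in circulating libraries. Cd5, which damps receptor signals, was at 0.319 FPKM in kidney and 12.7 FPKM in circulating libraries, and the costimulatory receptor gene Cd28 was lowest of the list in relative terms, at 1.80 FPKM in kidney and 152.8 FPKM in circulating libraries. Of the 8, 7 were called lower with a normal p, and Cd5 was not.

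All 3 coreceptor genes fell. Cd8a was at 84.5 FPKM in kidney and 429 FPKM in circulating libraries, a log2 fold change of -2.34 ± 0.79. Its partner chain gene Cd8b was at 4.76 FPKM in kidney and 82.0 FPKM in circulating libraries, and Cd4 was at 6.50 FPKM in kidney and 131 FPKM in circulating libraries. Kidney libraries kept 19.7% of the circulating Cd8a level, 5.81% of Cd8b and 4.95% of Cd4. The 3 differences between tissues are each over 2 SE, and no test of one coreceptor gene against another was made. The labelled cell type thus had its defining markers in both tissues, but none of them was above 98.0 FPKM (Cd3d) in kidney libraries, where Umod (3565 FPKM), a product of the thick ascending limb of the tubule, stood far above them.

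The start-site regions of 2 receptor genes are shown because both hold the same short match to the ETS motif AGGAAGTG, a sequence bound by the ETS family to which the lymphocyte factor Ets1 belongs. Sequences are from RefSeq on build GRCr8, reach from 250 bases before to 50 bases after the annotated start, and have the match in capitals, here as the reverse complement of the motif. Cd3e lies at chr8:54211721-54212020 on the minus strand and Cd247 at chr13:80576019-80576318 on the plus strand.
Cd3e: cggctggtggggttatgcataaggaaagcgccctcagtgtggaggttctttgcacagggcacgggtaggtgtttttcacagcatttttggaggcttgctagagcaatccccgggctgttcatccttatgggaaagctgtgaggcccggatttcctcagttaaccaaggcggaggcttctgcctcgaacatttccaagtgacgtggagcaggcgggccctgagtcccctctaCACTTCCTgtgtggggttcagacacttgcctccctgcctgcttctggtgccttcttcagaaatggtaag
Cd247: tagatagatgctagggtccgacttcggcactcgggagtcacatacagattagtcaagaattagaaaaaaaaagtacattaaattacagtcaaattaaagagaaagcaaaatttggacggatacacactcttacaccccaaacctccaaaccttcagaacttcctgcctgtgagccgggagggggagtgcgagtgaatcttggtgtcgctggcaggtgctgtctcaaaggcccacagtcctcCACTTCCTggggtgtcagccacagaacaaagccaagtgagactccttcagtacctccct
The match began 19 bases before the start site in Cd3e and 9 bases before it in Cd247. Of the 7 receptor complex genes with a promoter in the table, 2 held this motif on either strand (28.6%), beside 1152 of all 33469 promoters (3.44%). A second ETS form, CCGGAAGT, was in 0 of the 7, beside 3.81% of all promoters. AGGAAGTG was also in 2 of 19 genes of proximal receptor signalling (10.5%) and 0 of 11 naive T cell genes, lists that mostly fell. It was in 3 of 33 genes of respiratory complex I (9.09%), a list that mostly rose. The motif was 1 of 6 searched and was chosen with the values known. Ets1 itself fell, with 23.6 FPKM in kidney and 622 FPKM in circulating libraries. A match is only a match of letters, and no binding was measured.

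Genes that carry the receptor signal and genes typical of resting, naive T cells fell together with the receptor. Of 25 tested genes of proximal receptor signalling 23 were lower in kidney libraries and none was higher, with a median log2 fold change of -3.85. Lck, the kinase that starts the signal, was at 31.3 FPKM in kidney and 502 FPKM in circulating libraries, a log2 fold change of -4.00 ± 0.70. The adaptor gene Lat was at 91.4 FPKM in kidney and 494 FPKM in circulating libraries, and the phosphatase gene Ptpn22 at 8.37 FPKM in kidney and 170 FPKM in circulating libraries. The members not called were Ptpn6, a phosphatase of blood cells on a gene model shared with Grcc10, at 166 FPKM in kidney and 143 FPKM in circulating libraries, and Bcl10, at 20.5 FPKM in kidney and 24.4 FPKM in circulating libraries. Of 13 naive T cell genes 12 fell. Tcf7, a transcription factor of naive and stem-like T cells, was at 12.8 FPKM in kidney and 579 FPKM in circulating libraries. Satb1, a chromatin organiser of T cells, was at 6.11 FPKM in kidney and 362 FPKM in circulating libraries, and Art2b, an enzyme on the surface of rat T cells, at 2.64 FPKM in kidney and 176 FPKM in circulating libraries. The counts were 22 of 25 and 10 of 13 with a normal p.

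Receptors that guide T cells into and out of lymph nodes were among the genes with the largest falls. Ccr7, the lymph node homing receptor, was at 2.05 FPKM in kidney and 298.5 FPKM in circulating libraries, a log2 fold change of -7.18 ± 1.31. S1pr1, the egress receptor, was at 13.3 FPKM in kidney and 494 FPKM in circulating libraries (-5.21 ± 0.72). The kidney level was 0.688% of the circulating one for Ccr7 and 2.69% for S1pr1. The median over the homing list was 14.5%, with a median log2 fold change of -2.79, beside 6.00% over the receptor complex. Cxcr4, the receptor for Cxcl12, was at 40.2 FPKM in kidney and 498 FPKM in circulating libraries. The gut-homing receptor gene Ccr9 was at 0.181 FPKM in kidney and 15.6 FPKM in circulating libraries, and Gpr183, an oxysterol receptor gene, was at 3.92 FPKM in kidney and 32.1 FPKM in circulating libraries. S1pr4 fell as well, with 50.4 FPKM in kidney and 117 FPKM in circulating libraries, on a gene model it shares with Ncln. In all 10 of 17 members fell, among them Ccr6, Ccr4 and Gpr15, which were under 5 FPKM in both tissues.

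The other 7 homing receptors were not called. Cxcr3, carried by type 1 effector cells, was at 11.3 FPKM in kidney and 18.3 FPKM in circulating libraries. Cxcr6 was at 0.658 FPKM in kidney and 4.55 FPKM in circulating libraries and Cxcr5 at 0.655 FPKM in kidney and 2.56 FPKM in circulating libraries. Cx3cr1, the fractalkine receptor gene, was at 1.60 FPKM in kidney and 0.544 FPKM in circulating libraries, S1pr5 at 1.25 FPKM in kidney and 0.456 FPKM in circulating libraries, and Ccr10 at 4.45 FPKM in kidney and 1.61 FPKM in circulating libraries. These 3 were the members with a positive log2 fold change, all within the authors' error. Ccr8 was under 1 FPKM in both tissues and not tested. Of the 17, 5 were called lower with a normal p.

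Genes of leukocytes in general were also lower, with 20 of 22 called and a median log2 fold change of -3.39. Ptprc, which encodes the leukocyte antigen CD45, was at 10.8 FPKM in kidney and 761 FPKM in circulating libraries, a log2 fold change of -6.13 ± 0.97. Coro1a, a leukocyte actin regulator, was at 183 FPKM in kidney and 1188 FPKM in circulating libraries, and Rac2 was at 146 FPKM in kidney and 1041 FPKM in circulating libraries. Kidney libraries thus held 1.42% of the circulating Ptprc level but 15.4% of Coro1a and 14.1% of Rac2. The integrin gene Itga4 was at 1.12 FPKM in kidney and 86.6 FPKM in circulating libraries. Spn, at 49.0 FPKM in kidney and 60.7 FPKM in circulating libraries, and Dock8, at 44.7 FPKM in kidney and 60.3 FPKM in circulating libraries, were not called, and Spn shares its gene model with Qprt. The count was again 20 of 22 with a normal p.

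**Figure D2:**
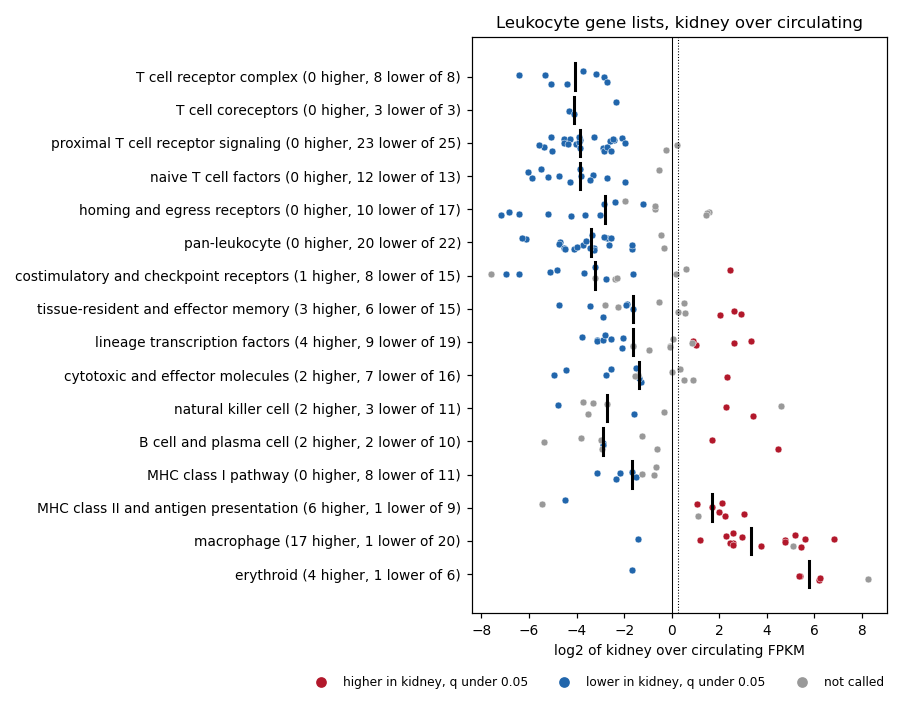
Log2 of kidney over circulating FPKM of each tested member of 16 leukocyte gene lists that reached 1 FPKM in either tissue and was above 0 in both, red where higher and blue where lower in kidney libraries at a q under 0.05 and grey where not called. Black bars are list medians, the dotted line is the median over all tested gene models, and the receptor, signalling, naive and leukocyte lists lie to the left while macrophage and MHC class II genes lie to the right.

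Genes of activated and tissue-resident T cells did not move as one. Of 15 tested members 3 rose and 6 fell, beside a background of 26.6% higher and 17.0% lower. The median log2 fold change was -1.62. Itga1, the collagen-binding integrin of resident memory cells, was at 47.2 FPKM in kidney and 11.6 FPKM in circulating libraries, on a gene model it shares with Pelo. The orphan receptor genes Nr4a1, at 15.8 FPKM in kidney and 2.56 FPKM in circulating libraries, and Nr4a2, at 2.51 FPKM in kidney and 0.335 FPKM in circulating libraries, also rose. Cd69, which holds cells in tissue by binding S1PR1, was at 12.9 FPKM in kidney and 138.5 FPKM in circulating libraries and fell. Itgae, which encodes the CD103 integrin of epithelial T cells, was not called at 8.97 FPKM in kidney and 12.8 FPKM in circulating libraries, nor was Hopx at 9.29 FPKM in kidney and 7.76 FPKM in circulating libraries. Itga1 is also expressed by vascular and stromal cells, whose genes were higher in kidney libraries, and their part in the result was not tested.

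Among costimulatory and checkpoint receptors 8 of 15 fell and 1 rose, beside a background of 17.0% lower and 26.6% higher. Cd27 was at 8.95 FPKM in kidney and 253.5 FPKM in circulating libraries, Icos at 3.26 FPKM in kidney and 41.8 FPKM in circulating libraries, and the inhibitory receptor gene Ctla4 at 4.28 FPKM in kidney and 28.8 FPKM in circulating libraries. Btla, another inhibitory receptor gene, was nearly absent from kidney libraries, with 0.0888 FPKM, against 11.0 FPKM in circulating ones. The gene that rose was Tnfrsf9, which encodes the activation receptor 4-1BB, with 13.5 FPKM in kidney and 2.46 FPKM in circulating libraries, and its call ended with a normal p. Tnfrsf4, which encodes OX40, was at 101 FPKM in kidney and 89.9 FPKM in circulating libraries, and Lag3 at 61.5 FPKM in kidney and 40.4 FPKM in circulating libraries. Neither was called, and Tnfrsf4 shares its gene model with Sdf4.

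Of 19 lineage transcription factors 4 rose and 9 fell, beside a background of 26.6% higher and 17.0% lower. Maf, a factor of helper, regulatory and tissue macrophage cells, was at 36.2 FPKM in kidney and 5.81 FPKM in circulating libraries (2.64 ± 0.77). Id3, at 87.0 FPKM in kidney and 46.3 FPKM in circulating libraries, and Bcl6, at 7.71 FPKM in kidney and 3.79 FPKM in circulating libraries, rose less and lost their calls with a normal p. Gata3, the type 2 factor, was at 15.1 FPKM in kidney and 46.3 FPKM in circulating libraries, Runx3 at 5.08 FPKM in kidney and 37.3 FPKM in circulating libraries, and Stat4 at 4.69 FPKM in kidney and 64.8 FPKM in circulating libraries, and all 3 fell. Foxp3, the factor of regulatory T cells, was not called at 7.49 FPKM in kidney and 14.6 FPKM in circulating libraries. Zbtb7b, the CD4 lineage factor, was at 13.8 FPKM in kidney and 14.5 FPKM in circulating libraries, and Id2 at 158 FPKM in kidney and 168 FPKM in circulating libraries, both within the error. Several of these factors are also expressed in kidney epithelium or macrophages, and the part of those cells was not tested.

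Cytotoxic and effector genes were called in both directions. Of 16 tested, 2 rose and 7 fell, beside a background of 26.6% higher and 17.0% lower. The median log2 fold change was -1.35. The 2 that rose were Ccl3, at 95.1 FPKM in kidney and 24.8 FPKM in circulating libraries, and Ccl4, at 23.8 FPKM in kidney and 4.76 FPKM in circulating libraries, chemokines made by activated T cells and by macrophages. The SE of the Ccl4 change was 3.08 on a log2 fold change of 2.32, and both calls ended with a normal p. The pore-forming protein gene Prf1, named after its values were seen, was at 1.04 FPKM in kidney and 31.9 FPKM in circulating libraries, Gzmm at 31.9 FPKM in kidney and 81.5 FPKM in circulating libraries, and the activating receptor gene Klrk1 at 8.11 FPKM in kidney and 175 FPKM in circulating libraries. Nkg7, a granule membrane protein gene, was at 35.3 FPKM in kidney and 35.1 FPKM in circulating libraries. Ccl5 was at 88.0 FPKM in kidney and 61.7 FPKM in circulating libraries, and neither was called.

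In the natural killer cell list 2 of 11 genes rose and 3 fell, not far from the background of 26.6% higher and 17.0% lower. With a normal p 2 were higher and 1 was lower. The adaptor genes Tyrobp, at 139 FPKM in kidney and 13.2 FPKM in circulating libraries, and Fcer1g, at 115 FPKM in kidney and 23.7 FPKM in circulating libraries, rose, and both are also strongly expressed by macrophages. The receptor gene Klrb1c was at 2.31 FPKM in kidney and 63.6 FPKM in circulating libraries and fell. Of 6 genes of gamma-delta and innate-like T cells 4 rose, among them Sox13 (8.56 FPKM in kidney and 0.0839 FPKM in circulating libraries), Il1r1 (2.83 FPKM in kidney and 0.233 FPKM in circulating libraries) and Zbtb16 (1.03 FPKM in kidney and 0.108 FPKM in circulating libraries). The interleukin-18 receptor gene Il18r1 fell, with 2.24 FPKM in kidney and 18.4 FPKM in circulating libraries. A further 4 members were not tested. With a normal p 2 of the 6 were higher and 1 lower. The list median log2 fold change was 3.29 here and 3.08 for SS/MCW on high salt. It was 7.7e-05 for SS/MCW LS of 7 weeks and -0.045 for SS/CRL LS of 10 weeks. These medians cover different members in each group and were not tested against each other. Over members measured in both groups the median difference was smaller. It was 0.05 from SS/MCW on high salt (5 members), 0.38 from 7 weeks (5 members) and 0.53 from SS/CRL (4 members). Tubule and stromal genes were also higher in kidney libraries, and their part in these rises was not tested. Of 10 B cell genes 2 rose and 2 fell, again not far from the background, and with a normal p 1 was higher and 1 lower. Cd79b fell, with 1.92 FPKM in kidney and 14.3 FPKM in circulating libraries. Pax5, at 21.7 FPKM in kidney and 6.65 FPKM in circulating libraries, and Blnk, at 24.5 FPKM in kidney and 1.09 FPKM in circulating libraries, rose while the other B cell genes did not.

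Of 9 genes of MHC class II and antigen presentation, among them the costimulatory genes Cd80 and Cd86 and the activation marker Cd83, 6 rose and 1 fell, with a median log2 fold change of 1.68, whereas of 11 class I pathway genes 8 fell and none rose, with a median of -1.66. Cd74, the invariant chain of class II, was at 547 FPKM in kidney and 115 FPKM in circulating libraries, a log2 fold change of 2.25 ± 0.71. The class II alpha chain gene RT1-Da was at 121 FPKM in kidney and 38.0 FPKM in circulating libraries, and the beta chain gene RT1-Bb at 57.0 FPKM in kidney and 14.4 FPKM in circulating libraries. Cd86 was 1 of the 6 that rose, with 2.76 FPKM in kidney and 0.334 FPKM in circulating libraries, while Cd80 and Cd83 were not called. Cd86 was named after its values were seen. The gene that fell was RT1-DOb, a B cell modulator of peptide loading, with 0.811 FPKM in kidney and 18.0 FPKM in circulating libraries. B2m, the light chain of class I, was at 568 FPKM in kidney and 2853 FPKM in circulating libraries. The immunoproteasome gene Psmb9 was at 47.7 FPKM in kidney and 135 FPKM in circulating libraries. Of the 9, 3 were called higher with a normal p, and none of the class I genes was called.

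Macrophage genes were higher in kidney libraries in 17 of 20 cases, with a median log2 fold change of 3.35, and 1 fell. Apoe, a lipid carrier of macrophages and other cells, was at 307 FPKM in kidney and 11.4 FPKM in circulating libraries (4.75 ± 0.72). The lysozyme gene Lyz2 was at 225 FPKM in kidney and 41.3 FPKM in circulating libraries, and the microglial and macrophage gene Aif1 at 88.2 FPKM in kidney and 1.84 FPKM in circulating libraries. The growth factor receptor gene Csf1r was at 18.2 FPKM in kidney and 3.03 FPKM in circulating libraries. Aif1, Csf1r and the complement genes were named after their values were seen. The complement genes C1qa, C1qb and C1qc were at 22.0, 37.3 and 26.8 FPKM in kidney libraries and listed at 0 in circulating ones. The protease genes Ctsb, at 404 FPKM in kidney and 68.7 FPKM in circulating libraries, and Ctsd, at 188 FPKM in kidney and 31.3 FPKM in circulating libraries, rose, but Ctss fell, with 34.8 FPKM in kidney and 92.2 FPKM in circulating libraries. Summed over the list, kidney libraries held 1584 FPKM and circulating libraries 330 FPKM. Of the 20, 7 were called higher with a normal p and none lower, a setting that could not test the 3 complement genes listed at 0.

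Other blood cells gave smaller or mixed signals, with the exception of globin. The globin genes Hba1, at 2255 FPKM in kidney and 30.7 FPKM in circulating libraries, and Hba2, at 1146 FPKM in kidney and 15.1 FPKM in circulating libraries, rose, and near-identical globin genes may share reads. Alas2, the haem synthesis enzyme of red cell precursors, was at 6.21 FPKM in kidney and 0.153 FPKM in circulating libraries. Of the neutrophil and monocyte genes, S100a9 fell, with 5.96 FPKM in kidney and 15.6 FPKM in circulating libraries, and Lcn2 rose, with 153 FPKM in kidney and 0.149 FPKM in circulating libraries. Lcn2 is also a product of stressed tubule cells. Of 7 platelet genes 1 rose and 1 fell, and Pf4 was not called, at 36.1 FPKM in kidney and 28.9 FPKM in circulating libraries. Only 2 dendritic cell genes and 1 mast cell gene were tested.

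Kidney libraries held genes of each tubule segment examined, and many of them were listed at or near 0 in circulating libraries. Of 26 proximal tubule transporters 20 rose and none fell. Slc34a1, the phosphate transporter of the proximal tubule, was at 488 FPKM in kidney and 0.0410 FPKM in circulating libraries, a log2 fold change of 13.54 ± 2.81. The organic anion transporter genes Slc22a6 and Slc22a8 were at 137 and 87.8 FPKM in kidney libraries and listed at 0 in circulating ones, as were 13 of the 26 in all. The water channel gene Aqp1 was at 1739 FPKM in kidney and 0.0234 FPKM in circulating libraries but was not called (q = 0.298 in the authors' deposited table). Among 24 proximal tubule enzymes 16 rose, with Miox, which breaks down inositol, at 1289 FPKM in kidney and 0.0604 FPKM in circulating libraries. Hao2 was at 1019 FPKM in kidney libraries and listed at 0 in circulating ones, and Gatm, which makes the creatine precursor, was at 689 FPKM in kidney and 0.152 FPKM in circulating libraries. With a normal p 6 transporters and 9 enzymes were called higher. That setting could not test the 13 transporters and 7 enzymes listed at 0 in circulating libraries.

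Of 13 thick ascending limb genes 10 rose. Cldn10, a tight junction gene, was at 202 FPKM in kidney and 1.79 FPKM in circulating libraries and Egf at 51.9 FPKM in kidney and 0.0951 FPKM in circulating libraries. Umod, at 3565 FPKM in kidney and 0.0313 FPKM in circulating libraries, and the sodium-potassium-chloride cotransporter gene Slc12a1, at 393 FPKM in kidney and 0.0062 FPKM in circulating libraries, were not called, with q values of 0.0521 and 0.308 in the authors' deposited table. Very high ratios over a circulating value near 0 thus passed for some tubule genes and missed for others. The potassium channel gene Kcnj1 was called on a log2 fold change of 12.71 with an SE of 28.7, a call that ended with a normal p.

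In the collecting duct 9 of 13 principal cell genes and 8 of 12 intercalated cell genes rose. The vasopressin-regulated water channel gene Aqp2 was at 135 FPKM and Aqp3 at 37.2 FPKM in kidney libraries, and both were listed at 0 in circulating ones. Hsd11b2, which protects the mineralocorticoid receptor from cortisol-type hormones, was at 77.0 FPKM in kidney and 0.0451 FPKM in circulating libraries. Car2, a carbonic anhydrase of intercalated cells, was at 375 FPKM in kidney and 40.0 FPKM in circulating libraries. In the distal convoluted and connecting tubule list 3 of 10 rose and 4 fell, with a median log2 fold change of -1.41. The share that rose is near the background of 26.6% higher, beside 17.0% lower. The sodium-chloride cotransporter gene Slc12a3 was at 33.5 FPKM in kidney and 6.75 FPKM in circulating libraries, and Calb1 was at 39.1 FPKM in kidney libraries and listed at 0 in circulating ones. The 4 that fell were Trpm6, Trpm7, Atp2b1 and Slc2a9, ion pumps, channels and transporters that are not confined to the tubule. Trpm7 was at 12.9 FPKM in kidney and 42.0 FPKM in circulating libraries. None of those 4 falls was called with a normal p, nor was Slc12a3.

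**Figure D3:**
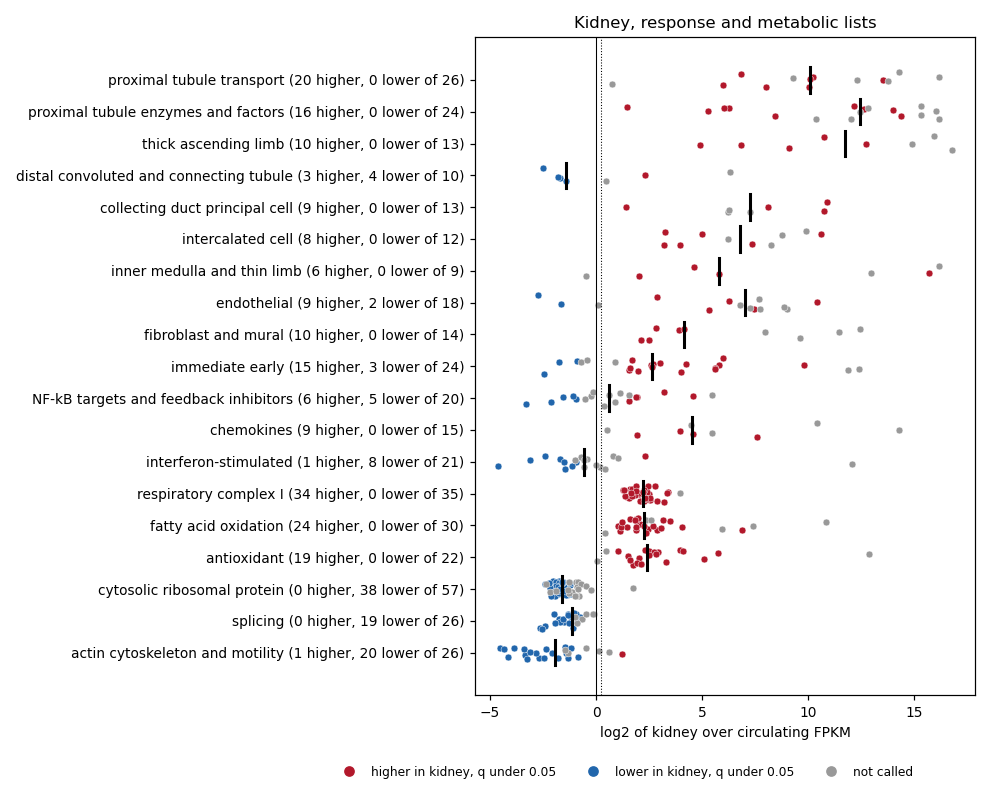
Log2 of kidney over circulating FPKM of each tested member of 19 lists of kidney cells, responses and metabolism that was above 0 in both tissues and reached 1 FPKM in either, coloured by call as red higher, blue lower and grey not called. Black bars are list medians and the dotted line is the median over all tested gene models; tubule lists spread to log2 values above 10, and complex I genes lie in a narrow band between 1.27 and 3.96.

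Vascular, stromal and glomerular genes were present at lower levels. Of 18 endothelial genes 9 rose and 2 fell. Emcn was at 38.4 FPKM and Cdh5, the endothelial cadherin gene, at 9.05 FPKM in kidney libraries, and both were listed at 0 in circulating ones. The 2 that fell were Ehd3, at 11.2 FPKM in kidney and 75.2 FPKM in circulating libraries, and Vwf, at 5.36 FPKM in kidney and 17.1 FPKM in circulating libraries, and Pecam1 was at 30.1 FPKM in kidney and 28.7 FPKM in circulating libraries. Of 14 fibroblast and mural genes 10 rose, with Sparc at 133 FPKM in kidney and 7.39 FPKM in circulating libraries and Dcn at 10.6 FPKM in kidney libraries and listed at 0 in circulating ones. Podocyte genes were lower still, with 7 of 10 higher and the highest of them, Podxl, at 14.6 FPKM in kidney and 0.0373 FPKM in circulating libraries. Of 7 genes of the angiotensin system 5 rose. The angiotensin receptor gene Agtr1a was at 4.62 FPKM in kidney libraries and listed at 0 in circulating ones.

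Genes of injured tubule and of salt handling were among the highest in kidney libraries. Spp1, which encodes osteopontin, was the second most abundant gene with a symbol in kidney libraries at 7758 FPKM, against 0.0177 FPKM in circulating ones, and was not called (q = 0.149 in the authors' deposited table). Mt1a, a metallothionein gene, was at 2123 FPKM in kidney and 67.4 FPKM in circulating libraries, Clu at 278 FPKM in kidney and 1.77 FPKM in circulating libraries, and Timp3 at 484 FPKM in kidney and 0.0366 FPKM in circulating libraries. In all 8 of 14 injury genes rose and none fell. Of 14 genes of sodium and osmotic response 8 rose and 1 fell. The sodium pump genes Atp1b1, at 1286 FPKM in kidney and 2.1 FPKM in circulating libraries, and Fxyd2, at 2926 FPKM in kidney and 0.533 FPKM in circulating libraries, rose. Nfat5, the transcription factor of the osmotic response, was at 71.6 FPKM in kidney and 18.4 FPKM in circulating libraries, and its target transporter gene Slc6a12 at 25.5 FPKM in kidney and 0.454 FPKM in circulating libraries. Tsc22d3, induced by glucocorticoids, fell, with 91.8 FPKM in kidney and 469 FPKM in circulating libraries. The call of Nfat5 ended with a normal p.

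Immediate early genes, which cells transcribe within minutes of a stimulus, were higher in kidney libraries in 15 of 24 cases and lower in 3, with a median log2 fold change of 2.62. Fos, a subunit of the AP-1 factor, was at 245 FPKM in kidney and 4.44 FPKM in circulating libraries, a log2 fold change of 5.79 ± 0.90. Its partner gene Jun was at 204 FPKM in kidney and 34.1 FPKM in circulating libraries, and Junb at 129 FPKM in kidney and 40.5 FPKM in circulating libraries. The phosphatase gene Dusp1 was at 162 FPKM in kidney and 25.2 FPKM in circulating libraries, the messenger RNA decay factor gene Zfp36 (on a gene model shared with Med29) at 192 FPKM in kidney and 48.7 FPKM in circulating libraries, and the stress factor gene Atf3 at 58.5 FPKM in kidney and 0.0658 FPKM in circulating libraries. The 3 that fell were Btg2, an antiproliferative gene, at 62.1 FPKM in kidney and 346 FPKM in circulating libraries, Myc at 20.8 FPKM in kidney and 70.5 FPKM in circulating libraries, and Jund at 145 FPKM in kidney and 268 FPKM in circulating libraries. Klf6 was at 45.1 FPKM in kidney and 60.5 FPKM in circulating libraries and was not called. Tubule and macrophage genes were higher in the same libraries, and their part in the result was not tested. With a normal p 11 members were called higher and 1 lower, and Jund and Myc lost their calls.

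**Figure D4:**
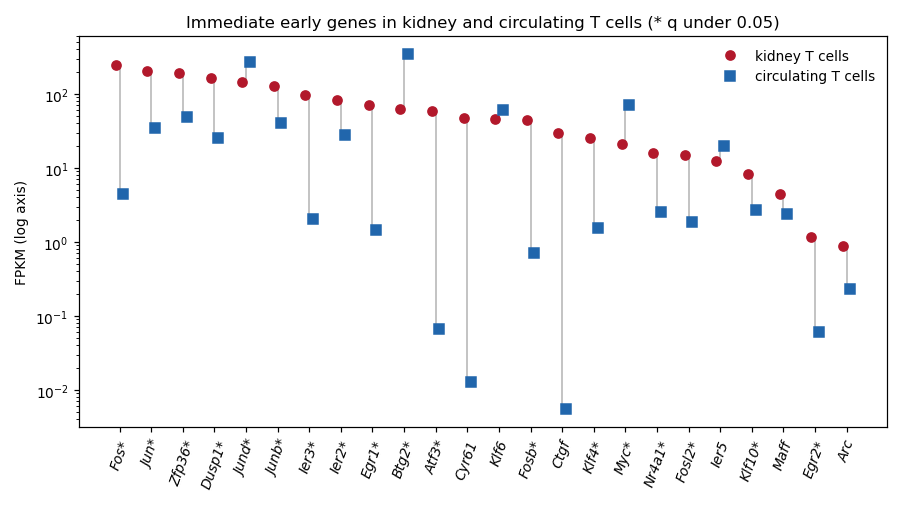
FPKM (log axis) of the 24 tested immediate early genes in kidney libraries (red circles) and circulating libraries (blue squares), ordered by the kidney level, with an asterisk where the authors' q was under 0.05. Fos has the highest kidney level, 245 FPKM, and Btg2, Jund and Myc are the called genes whose circulating value is the higher one.

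The start-site regions of Dusp1 and Ier2 are shown because both genes rose and both hold a full cyclic AMP response element, TGACGTCA, the palindrome bound by CREB and ATF factors. They are from RefSeq on build GRCr8, with Dusp1 at chr10:17184603-17184902 and Ier2 at chr19:40399123-40399422, both on the plus strand, and with the element in capitals.
Dusp1: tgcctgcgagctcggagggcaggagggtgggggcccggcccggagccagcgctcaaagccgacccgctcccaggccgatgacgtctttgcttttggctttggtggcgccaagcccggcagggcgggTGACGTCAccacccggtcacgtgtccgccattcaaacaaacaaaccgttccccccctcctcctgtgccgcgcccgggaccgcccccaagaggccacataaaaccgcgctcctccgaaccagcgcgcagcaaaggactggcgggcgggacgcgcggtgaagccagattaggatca
Ier2: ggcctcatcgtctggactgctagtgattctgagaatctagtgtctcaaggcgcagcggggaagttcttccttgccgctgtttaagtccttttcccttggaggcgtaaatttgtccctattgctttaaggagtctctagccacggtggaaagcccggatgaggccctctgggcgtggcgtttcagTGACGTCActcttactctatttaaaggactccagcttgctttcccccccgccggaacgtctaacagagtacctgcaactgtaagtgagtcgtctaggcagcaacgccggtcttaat
The element began 124 bases before the start site in Dusp1 and 66 bases before it in Ier2. Ier2, named for this element after its values were seen, was at 82.5 FPKM in kidney and 28.0 FPKM in circulating libraries. Of the 16 immediate early genes with a promoter in the table, 5 held the element (31.2%), beside 612 of all 33469 promoters (1.83%). The other 3 were Btg2 and Jund, which fell, and Maff, which was not called at 4.41 FPKM in kidney and 2.39 FPKM in circulating libraries. Genes with the element thus went in both directions. It was also in 2 of 33 genes of respiratory complex I (6.06%) and 2 of 19 of complexes II to IV (10.5%), lists that mostly rose. Among lists that mostly fell, it was in 1 of 19 genes of proximal receptor signalling (5.26%) and 0 of 11 naive T cell genes. The element was 1 of 6 motifs searched and was chosen with the values known, and no binding was measured. No promoter of the 16 held the AP-1 motif TGACTCA, which is in 4.63% of all promoters. With so few promoters, that count cannot tell a lack of the motif from the background share.

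A further list holds targets of NF-kB, the main inflammatory transcription factor, and feedback inhibitors. Among the inhibitors are Socs1, Socs3 and Dusp6, which act on cytokine and MAP kinase signals. Of its 20 tested genes 6 rose and 5 fell, near the background of 26.6% higher and 17.0% lower. The median log2 fold change was 0.60. With a normal p 1 was higher and 2 were lower. Socs3 was at 82.3 FPKM in kidney and 27.9 FPKM in circulating libraries, Il1b at 12.0 FPKM in kidney and 1.30 FPKM in circulating libraries, and Icam1 at 11.9 FPKM in kidney and 3.07 FPKM in circulating libraries. The inhibitor gene Tnfaip3, at 8.70 FPKM in kidney and 86.6 FPKM in circulating libraries (-3.32 ± 0.64), Nfkbia, at 70.5 FPKM in kidney and 136 FPKM in circulating libraries, and Nfkb1, at 18.5 FPKM in kidney and 54.2 FPKM in circulating libraries, fell. The calls of Socs3, Il1b, Icam1 and Nfkbia ended with a normal p. Of 15 chemokine genes 9 rose and none fell. Cxcl16 was at 112 FPKM in kidney and 0.576 FPKM in circulating libraries, and Cxcl1 was at 16.8 FPKM and Cx3cl1, the ligand of Cx3cr1, at 29.0 FPKM in kidney libraries, both listed at 0 in circulating ones. Cxcl12, the ligand of Cxcr4, was at 89.0 FPKM in kidney and 0.00446 FPKM in circulating libraries and was not called.

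Several interleukin receptor genes fell. Of 23 cytokine and receptor genes 12 fell and 5 rose. Il2rg, the common chain of several interleukin receptors, was at 22.1 FPKM in kidney and 496 FPKM in circulating libraries, Il4r at 20.8 FPKM in kidney and 164 FPKM in circulating libraries, and Il21r at 6.83 FPKM in kidney and 153 FPKM in circulating libraries. The 5 that rose were Tnfrsf1a (24.3 FPKM in kidney and 6.56 FPKM in circulating libraries), Il34, Il18, Csf1 and Tgfb2. Il34 and Csf1, growth factors that act on Csf1r, were at 17.1 and 5.95 FPKM in kidney libraries and at 0.0885 and 0.363 FPKM in circulating ones. Of 21 interferon-stimulated genes 8 were lower, 1 was higher and the rest were not called. Mx1, an antiviral GTPase gene, was at 5.85 FPKM in kidney and 146 FPKM in circulating libraries, whereas its relative Mx2, named after its values were seen, was at 13.9 FPKM in kidney and 22.9 FPKM in circulating libraries and was not called. Rsad2 rose, with 2.40 FPKM in kidney and 0.482 FPKM in circulating libraries, and Isg15, at 29.8 FPKM in kidney and 17.2 FPKM in circulating libraries, was not called. With a normal p 2 members were called lower and none higher.

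Genes of the daily clock and of glucocorticoid response were called in both directions, 7 higher and 3 lower of 19. This is not far from the background of 26.6% higher and 17.0% lower, and with a normal p 2 were higher and 2 lower. The sign of their median log2 fold change, -0.18, turned with the tables within a tissue (0.16), with recentring (0.01) and with a minimum of 5 FPKM (0.09). Bhlhe40, a clock and activation factor gene, was at 30.7 FPKM in kidney and 3.17 FPKM in circulating libraries, Nr1d1 at 42.1 FPKM in kidney and 5.84 FPKM in circulating libraries, and Per2 at 11.6 FPKM in kidney and 1.67 FPKM in circulating libraries, all higher. Per1, on a gene model shared with Vamp2, was at 62.9 FPKM in kidney and 85.8 FPKM in circulating libraries and was not called. The glucocorticoid receptor gene Nr3c1 was at 12.9 FPKM in kidney and 23.1 FPKM in circulating libraries and Fkbp5, its target, at 8.17 FPKM in kidney and 26.6 FPKM in circulating libraries, both lower. Chaperone genes rose in 6 of 15 cases, and no call was made among them with a normal p. Hsp90aa1 was at 198 FPKM in kidney and 98.5 FPKM in circulating libraries. Of 16 genes of the unfolded protein and amino acid stress responses 5 rose and 1 fell, beside the same background. With a normal p 1 was higher and 0 were lower. Ppp1r15a was at 88.0 FPKM in kidney and 17.0 FPKM in circulating libraries and Xbp1 at 57.0 FPKM in kidney and 22.9 FPKM in circulating libraries. Atf4, at 232 FPKM in kidney and 196 FPKM in circulating libraries, was not called.

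Most genes of the respiratory chain and of mitochondrial fuel oxidation rose. Of 35 genes of respiratory complex I, the entry point of electrons, 34 were higher and the last was not called, with a median log2 fold change of 2.21 and a range from 1.27 to 3.96. Ndufa4 was at 829 FPKM in kidney and 180 FPKM in circulating libraries, Ndufa11 at 779 FPKM in kidney and 75.5 FPKM in circulating libraries, and Ndufb7 at 597 FPKM in kidney and 59.8 FPKM in circulating libraries. Complexes II to IV had 22 of 24 higher and ATP synthase 13 of 15, with Cox6c at 1974 FPKM in kidney and 518 FPKM in circulating libraries and Atp5i at 3379 FPKM in kidney and 405 FPKM in circulating libraries. Uqcr10 and Atp5h, which were not called, matched gene models of under 5 FPKM and are uncertain. The citric acid cycle had 20 of 21 higher, with Idh2, the mitochondrial isocitrate dehydrogenase gene, at 546 FPKM in kidney and 12.7 FPKM in circulating libraries (5.43 ± 0.69). Fatty acid oxidation had 24 of 30 higher, with Etfb, an electron carrier gene, at 444 FPKM in kidney and 27.1 FPKM in circulating libraries. Antioxidant genes had 19 of 22 higher, with Sod1 at 1392 FPKM in kidney and 249.6 FPKM in circulating libraries and Gpx1 at 892 FPKM in kidney and 133 FPKM in circulating libraries. With a normal p complex I had 23 of 35 higher, complexes II to IV 15 of 24 and ATP synthase 7 of 15. The citric acid cycle had 9 of 21 higher, fatty acid oxidation 15 of 30 and antioxidant genes 14 of 22. No member of these lists was called lower.

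Glycolysis was less uniform, with 11 of 20 genes higher and 1 lower. Ldhb, the lactate dehydrogenase chain of oxidative tissues, was at 864 FPKM in kidney and 7.93 FPKM in circulating libraries, whereas Ldha was at 227 FPKM in kidney and 264 FPKM in circulating libraries and was not called. Aldoa rose, with 1017 FPKM in kidney and 134 FPKM in circulating libraries, and the lactate transporter gene Slc16a1 fell, with 5.25 FPKM in kidney and 12.9 FPKM in circulating libraries. Of 9 NADPH oxidase genes, whose enzyme makes superoxide, 4 rose and 1 fell. Cyba was at 238 FPKM in kidney and 99.8 FPKM in circulating libraries and Ncf1 at 12.6 FPKM in kidney and 6.27 FPKM in circulating libraries, while Nox4, the renal oxidase, was at 10.1 FPKM in kidney libraries and listed at 0 in circulating ones. The catalytic subunit gene of phagocytes, Cybb, was at 7.24 FPKM in kidney and 4.20 FPKM in circulating libraries and was not called.

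Cytosolic ribosomal protein genes were lower in 38 of 57 cases and none was higher, with a median log2 fold change of -1.60. Rps27 was at 4242 FPKM in kidney and 14710 FPKM in circulating libraries, and Rps23 at 1752 FPKM in kidney and 6669 FPKM in circulating libraries. Rpl41, the most abundant gene with a symbol in kidney libraries, was at 12230 FPKM in kidney and 14420 FPKM in circulating libraries and was not called. These genes have many near-identical copies, so their levels are uncertain, and 1 member was called lower with a normal p. Their mitochondrial counterparts went the other way, with 19 of 38 higher and 1 lower and a median of 1.10. Mrpl12 was at 203 FPKM in kidney and 38.9 FPKM in circulating libraries. Proteasome genes were nearly level, with 4 of 31 higher, none lower and a median of 0.23, close to the 0.24 of all tested gene models.

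Of 26 splicing genes 19 fell (5 with a normal p), with the helicase gene Ddx5 at 212 FPKM in kidney and 1224 FPKM in circulating libraries and Hnrnpa1 at 139 FPKM in kidney and 875 FPKM in circulating libraries. Of 26 genes of actin and cell motility 20 fell (11 with a normal p), with Tmsb10 at 1503 FPKM in kidney and 8246 FPKM in circulating libraries and Pfn1 at 744 FPKM in kidney and 2598 FPKM in circulating libraries. Actg1 was the actin gene that rose, with 1074 FPKM in kidney and 464 FPKM in circulating libraries (1.21 ± 0.81), and Actb, at 1578 FPKM in kidney and 3940 FPKM in circulating libraries, was not called. Of 22 cell cycle genes 6 rose and 3 fell, close to the background of 26.6% higher and 17.0% lower. The replication helicase genes Mcm3, at 3.96 FPKM in kidney and 32.2 FPKM in circulating libraries, Mcm6, at 6.88 FPKM in kidney and 19.5 FPKM in circulating libraries, and Mcm7, at 16.5 FPKM in kidney and 39.9 FPKM in circulating libraries, fell. The mitotic genes Cdk1, at 6.04 FPKM in kidney and 0.808 FPKM in circulating libraries, Cdc20, at 5.18 FPKM in kidney and 0.860 FPKM in circulating libraries, and Kif11, at 4.73 FPKM in kidney and 0.916 FPKM in circulating libraries, rose. Only Mcm3 kept its call with a normal p.

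Kidney genes made up the largest rises among genes that carry a symbol, are above 0 in both tissues and reach 5 FPKM in either. They were led by Cryab, a small heat shock protein gene of the inner medulla, at 1313 FPKM in kidney and 0.0250 FPKM in circulating libraries, and by Sult1c2a, a sulfotransferase gene, at 182 FPKM in kidney and 0.00359 FPKM in circulating libraries. Their log2 fold changes were 15.68 with an SE of 13.1 and 15.63 with an SE of 33.5, and neither was called with a normal p. Other rises were Fbp1, at 347 FPKM in kidney and 0.0549 FPKM in circulating libraries, and the matrix receptor gene Ddr1, at 28.6 FPKM in kidney and 0.00361 FPKM in circulating libraries. Tff3 at 732 FPKM and Defb1, an epithelial defensin gene, at 550 FPKM in kidney libraries were listed at 0 in circulating ones.

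The largest falls were mostly lymphocyte genes. Besides Ccr7, Ccr9, Btla, Cd28, Itga4, Ptprc, Art2b and Satb1 they included Sv2b, a vesicle protein gene, at 0.128 FPKM in kidney and 21.4 FPKM in circulating libraries, and Adam19, a protease gene, at 1.33 FPKM in kidney and 74.5 FPKM in circulating libraries. The T cell receptor alpha variable genes Trav4-2 and Trav5-4 were listed at 0 in kidney libraries and at 5.83 and 2.41 FPKM in circulating ones. Fth1, which stores iron, was among the 10 most abundant genes in kidney libraries and rose, with 5691 FPKM in kidney and 668 FPKM in circulating libraries. Tmsb4x, at 6441 FPKM in kidney and 17620 FPKM in circulating libraries, was the most abundant gene with a symbol in circulating cells and was not called, while Tpt1 fell, with 3195 FPKM in kidney and 12930 FPKM in circulating libraries.

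The same contrast was set against that of SS/MCW rats after 3 weeks of high salt (HS), of SS/MCW rats on LS at 7 weeks of age and of SS/CRL rats on LS at 10 weeks, none of which shares a library with it. The difference of the log2 fold changes passed a z test after Benjamini-Hochberg adjustment in 2 of 16488 gene models against HS (0.0121%), 2 of 16330 against 7 weeks (0.0122%) and 3 of 15563 against SS/CRL (0.0193%). None of these gene models carries a symbol. At an unadjusted p under 0.05 of the z test there were 38 (0.23%), 63 (0.39%) and 27 (0.17%). Unchanged gene models of the simulated data below gave 4.53% to 5.27%. The simulated differences thus spread more, relative to their errors, than most of those in the data. The recovered shares therefore need not hold for the data. On simulated data with the same errors, differences of 4 on the log2 scale were recovered in 31.5% of cases against HS, 39% against 7 weeks and 44.5% against SS/CRL, and differences of 2 in 0%, 1% and 3%. Differences of 6 were recovered in 56%, 57.5% and 57.5%, so at these errors most differences of up to 4 on the log2 scale were missed in the simulation.

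Calls were in large part shared with the other rats at the level of members, although no test of a list was made. Over all gene models tested here, 3694 (17.0%) were higher and 2595 (12.0%) lower in all 4 groups of rats. All 8 receptor complex genes, 23 of 25 signalling genes and 12 of 13 naive genes fell in all 4 groups of rats, as did Ccr7, S1pr1, S1pr4, Ccr9, Ccr6 and Cxcr4. Itga1, Nr4a1, Nr4a2, Maf, Ccl3 and Ccl4 rose in all 4, as did 13 immediate early genes, 15 macrophage genes and 34 complex I genes. The median log2 fold change of the receptor complex was -4.06 here, -3.14 on HS, -5.16 at 7 weeks and -5.03 in SS/CRL rats. That of macrophage genes was 3.35 here, 4.18 on HS, 2.73 at 7 weeks and 2.18 in SS/CRL rats, and that of MHC class II and antigen presentation genes 1.68 here, 2.05 on HS, 1.43 at 7 weeks and 0.11 in SS/CRL rats, each over the members measured in that group. These medians were not tested against each other.

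**Figure D5:**
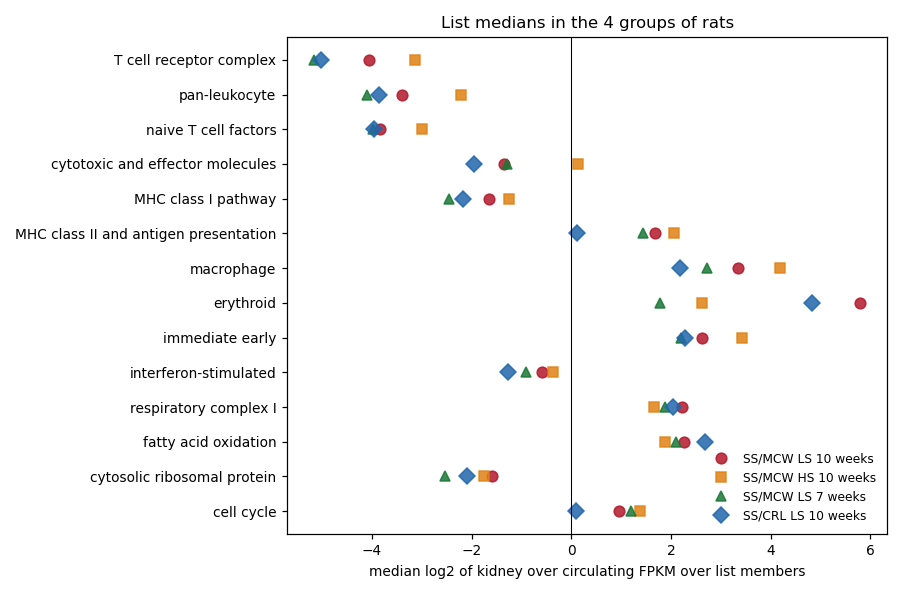
Median log2 of kidney over circulating FPKM of 14 gene lists (rows) in the rats described here (SS/MCW LS 10 weeks, red circles) and in SS/MCW HS rats (orange squares), SS/MCW LS rats at 7 weeks (green triangles) and SS/CRL LS rats at 10 weeks (blue diamonds). The receptor complex median is -4.06 in the rats described here and -3.14 on high salt, and the erythroid median is 5.79 here and 1.78 at 7 weeks.

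Genes with a symbol and a large difference did not pass the adjustment, and the values of 4 of them are given as a description. Hba2 gave 1146 FPKM in kidney and 15.1 FPKM in circulating libraries here, against 205 FPKM in kidney and 53.1 FPKM in circulating libraries at 7 weeks, a difference of 4.30 ± 1.10. The platelet gene Pf4 was at 36.1 FPKM in kidney and 28.9 FPKM in circulating libraries here, against 6.81 FPKM in kidney and 107.6 FPKM in circulating libraries at 7 weeks, a difference of 4.30 ± 1.24. Stub1, a ubiquitin ligase gene, was at 98.8 FPKM in kidney and 458.5 FPKM in circulating libraries here, against 120 FPKM in kidney and 63.2 FPKM in circulating libraries of SS/CRL rats, a difference of -3.14 ± 0.81. In Stub1 the circulating value differed more between the groups of rats than the kidney one. Tyrobp was at 139 FPKM in kidney and 13.2 FPKM in circulating libraries here, against 43.8 FPKM in kidney and 27.5 FPKM in circulating libraries of SS/CRL rats, a difference of 2.73 ± 1.09.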

How the data were processed

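RNA of isolated T cells was sequenced by the submitters in 40 libraries, of which 8 enter this comparison. The submitters' processing notes name cutadapt, Trim Galore 0.2.5, TopHat, TopHat2 2.1.1, Cufflinks 2.2.1 and Cuffdiff, and rn5 as the build, and give no roles or order. Per the file headers, the deposited tables hold 1 FPKM per gene model and group, computed by the authors over the 4 libraries. They also hold the authors' test statistic, a score, and the p-value and q-value deposited with it, the smallest p being 5e-05. Counts per library are not used here, so the depth is unknown. The p-values are those of the authors' test on 4 pools per group, and the spread between pools is not given with them.

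Log2 fold changes of kidney over circulating cells were computed from the deposited FPKM, and the SE is the fold change divided by the statistic. Calls had a q under 0.05, and gene models without a status of OK (9995) were left out. Of 1057 list genes in 57 lists, 1014 matched a gene model, 8 by a synonym and 35 on a model with several symbols, and 29 have several models, of which 1 is used. List medians use members above 0 in both tissues that reach 1 FPKM in either. Differences between groups of rats were tested by z, a normal approximation, with Benjamini-Hochberg adjustment, after a test on simulated data (seed 1).

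Genes named are the 15 largest rises and falls with at least 5 FPKM, the 10 most abundant per tissue, up to 5 genes higher, 5 lower and 4 not called per list, every receptor complex, coreceptor and homing gene, up to 5 per direction listed at 0, and the 5 largest differences per direction. Of these 527, many are not printed, some genes are not reported here, and other list genes were picked with their values known. Members and lists were chosen with earlier results of these data known. Promoters were matched by symbol to RefSeq on GRCr8. Calls were also made with a q below 0.01, from 1 FPKM upwards, with a normal p with and without recentring, and with a fold above 2. Lists were also described with a pseudocount of 1, other minimums, the tables within a tissue and recentring. Tables were read with pandas 2.3.3, tests run in scipy 1.17.1 and numpy 2.4.6, and plots drawn in matplotlib 3.10.9, all under Python 3.11.15.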

Additional observations from a re-analysis of the deposited data

Results flagged for a closer look

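The difference of the kidney over circulating effect between groups of rats passed its test in 7 cases on 3 gene models without a symbol. Gene model MSTRG.59259, on the mitochondrial genome at positions 15347 to 15415 of build rn5, was at 14190 FPKM in kidney and 286.7 FPKM in circulating libraries. Its log2 fold change exceeded that of SS/CRL rats by 0.903 and that of SS/MCW LS rats at 7 weeks by 4.47. Gene model ENSRNOG00000047297 was at 526 FPKM in kidney and 192.5 FPKM in circulating libraries, with differences of 1.78 from SS/CRL rats and 3.18 from SS/MCW HS rats. Gene model ENSRNOG00000041370 was at 94.2 FPKM in kidney and 135.5 FPKM in circulating libraries, with differences of -0.304 from SS/CRL rats, -2.19 from SS/MCW HS rats and 0.943 from SS/MCW LS rats at 7 weeks. The authors' statistic was 594, 86.3 and -11.6 for these 3, which gives very small standard errors, yet none of them was called by the authors' q in the comparison described here. What sets those statistics was not tested.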

How the results depend on the processing

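No paired analysis was possible because the deposited tables hold 1 value per group, and for the same reason no replicate could be left out. With 5769 gene models higher and 3676 lower as reported, a q under 0.01 gave 4682 and 2775, a minimum of 1 FPKM 5632 and 3584, and a fold above 2 gave 5537 and 3360. A normal p of the statistic gave 1541 and 909, of which 1378 and 876 were among the calls reported, and with recentring on gene models with at least 5 FPKM in both tissues (median -0.19) it gave 1751 and 740. The share of calls that were higher was 61.1% as reported and 70.3% with recentring. Of the named genes 149 lost their call with a normal p. With the tables within a tissue 16 of 491 named genes turned the sign of their log2 fold change, none of them called. List medians turned their sign with a minimum of 5 FPKM for dendritic cell (-1.89), platelet (-0.64) and cell cycle (-0.44) genes and with a pseudocount of 1 for distal tubule genes (0.68). Recentring on the T cell receptor complex, whose median is -4.06, raises every median by that amount. With standard errors from the deposited p, 1 difference passed against SS/MCW HS, 2 against SS/MCW LS at 7 weeks and 1 against SS/CRL. The cause was not tested.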
